A study of Arabidopsis thaliana with 28 samples.

Results

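The genes described here are 8 genes of the Casparian strip of the root endodermis, the CASPARIAN STRIP MEMBRANE DOMAIN PROTEIN genes CASP1, CASP2, CASP4 and CASP5, MYB36, ENHANCED SUBERIN 1 (ESB1), SCHENGEN3 (SGN3, named GSO1 in the reference annotation) and PEROXIDASE 64 (PER64). They were chosen by name for their known role and not by a rule on their values, though earlier results of these data were known. They are 8 of the 33201 genes in the deposited table. All 8 were among the 22694 genes that passed the filter on low values, which asked for at least 1 FPKM (fragments mapped to a gene, scaled to its length and to the reads of the sample) in at least 3 samples.

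The Casparian strip is a lignin band in the walls of endodermal cells that seals the space between them, so that water and solutes have to cross a cell before they reach the vasculature. CASP proteins form a membrane domain that marks where the strip is laid down, PER64 and the dirigent-like protein ESB1 act in the deposition of lignin there, and the receptor kinase SGN3 senses peptides that diffuse through an unsealed strip. MYB36 is a transcription factor that switches on CASP, PER64 and ESB1 genes when endodermal cells differentiate, above the zone where the stem cells divide.

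RNA-Seq was performed on 28 samples in 8 populations of sorted cells, all from the root tips of 5-day-old Arabidopsis seedlings. Cells positive for the reporter came from AGL42:GFP for the stem cell niche (SCN, n = 4), CYCD6:GFP for the cortex endodermis initials (CEI, n = 3), CVP2:NLS:VENUS for the protophloem (Protophlo, n = 4), FEZ:FEZ-GFP for the initials of epidermis and lateral root cap (Epi/LRC, n = 3), the enhancer trap J2341 for the columella stem cells (CSCs, n = 3), TMO5:3xGFP for the xylem initials (Xyl, n = 4) and WOX5:GFP for the quiescent center (QC, n = 3). The non-stem cells (NSCs, n = 4) were the cells of AGL42:GFP roots without the reporter signal, so they mix many tissues and ages. Every population carries a reporter, no population was untreated by protoplasting, and a population is only as pure as the promoter or trap that drives its reporter. In such bulk samples a lower level in fewer cells and a lower level in every cell cannot be told apart.

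Some libraries stood apart from their labels or, in the 8 genes, from their replicates. Over 22593 genes without the Casparian strip genes and the gene lists below, CEI replicate 2 had a mean Pearson's r of 0.907 with the NSCs and of 0.820 with its own replicates, and 6 other samples (SCN replicates 1 to 4 and Epi/LRC replicates 1 and 3) were also closest to a population other than their own. CYCD6;1, whose promoter drives the reporter of the CEI, had 1.89, 1.48 and 22.7 FPKM in CEI replicates 1 to 3, against 0.530 to 1.76 FPKM in the NSCs. SCR and MGP, a pair of transcription factor genes of the ground tissue, had 33.1, 16.4 and 100.3 FPKM (SCR) and 65.8, 15.9 and 69.8 FPKM (MGP) in CEI replicates 1 to 3, so that replicate 2 was the lowest in both. In the libraries labelled Protophlo the phloem genes CVP2, APL and SEOR1 reached at most 5.22, 3.58 and 0.316 FPKM, while the root hair genes COBL9 and EXPA7 had 69.8 to 254.5 and 237.5 to 552.4 FPKM there, against 5.99 to 14.5 and 33.6 to 78.6 FPKM in the NSCs. These were picked from 4 epidermis markers, which also include WER and GL2. Of the 4, 0 were past the threshold in the Protophlo against the NSCs (median log2 fold change 1.58). Of the 3 phloem genes, 0 were past it either. Protophlo replicate 4 was the highest of all samples for 6 of the 8 genes and held 0.960% of its summed FPKM in the 8 genes, against 0.132% to 0.237% in the NSCs. Over the 22593 other genes it was closest to its own population (mean r of 0.819, against 0.800 with the NSCs). It was set aside for its high values in the 8 genes, so lower counts in the Protophlo without it follow in part from that choice. The counts past the threshold and the correlations over all samples are therefore given with and without CEI replicate 2 and Protophlo replicate 4. The part of these differences between libraries in the results was not tested.

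In the TAIR10.1 annotation (RefSeq) the 8 genes lie apart on 4 chromosomes. CASP1 (AT2G36100, minus strand, positions 15159591 to 15160799) and ESB1 (AT2G28670, minus strand, 12300265 to 12302358) are on chromosome 2. CASP2 (AT3G11550, plus strand, 3638178 to 3639348) is on chromosome 3 and SGN3 (AT4G20140, plus strand, 10883921 to 10888270) on chromosome 4. CASP4 (AT5G06200, 1877134 to 1878324), CASP5 (AT5G15290, 4967011 to 4968092), MYB36 (AT5G57620, 23334767 to 23336632) and PER64 (AT5G42180, 16852628 to 16854224) are all on the plus strand of chromosome 5. FPKM were summarised over whole genes, and the 4 CASP genes and MYB36 are annotated with 3 exons each, PER64 with 4, and the longest transcripts of ESB1 and SGN3 with 2.

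Reads were 100 bases long, and no pair of these 4 CASP transcripts shared an exact run of more than 20 bases, found between CASP2 and CASP4. ESB1 shares 1402 bases with AT2G28671 and SGN3 shares 337 bases with AT4G20150, both annotated on the opposite strand, and the sources used here do not say that the counting used strand. AT2G28671 stayed at or under 7.36 FPKM in every sample. AT4G20150 lay between 256.4 and 734.4 FPKM in the 28 samples, far above SGN3, and SGN3 was listed at 0 in 5 samples in which AT4G20150 was high. The levels of ESB1 and SGN3 are therefore less certain than those of the other genes.

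The promoters of 3 genes are shown from 250 bases before to 50 bases after the annotated start (TAIR10.1, RefSeq, 5′ to 3′ on the strand of the gene): CASP1 as the most abundant of the 8 genes in the NSCs, CASP5 as the gene whose level departed from the other CASP genes, and MYB36 as the regulator. Capitals mark matches on either strand to TATAAA or to 1 of the 3 AC elements bound by R2R3 MYB proteins. The first of these elements reads ACCTACC, a second version reads ACCAACC and the last version reads ACCTAAC, and no matches overlapped.
CASP1 (chr2:15160750-15161049, minus strand): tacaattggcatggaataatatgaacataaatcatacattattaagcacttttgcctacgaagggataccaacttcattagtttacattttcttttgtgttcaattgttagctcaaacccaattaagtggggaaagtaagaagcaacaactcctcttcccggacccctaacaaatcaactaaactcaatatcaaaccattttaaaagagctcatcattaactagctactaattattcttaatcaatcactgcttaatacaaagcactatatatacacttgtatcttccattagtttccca
CASP5 (chr5:4966761-4967060, plus strand): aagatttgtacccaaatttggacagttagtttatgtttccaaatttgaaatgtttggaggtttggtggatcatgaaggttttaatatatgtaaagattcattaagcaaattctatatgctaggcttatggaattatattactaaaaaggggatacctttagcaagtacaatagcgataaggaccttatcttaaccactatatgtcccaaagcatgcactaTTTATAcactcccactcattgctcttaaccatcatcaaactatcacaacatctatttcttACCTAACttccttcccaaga
MYB36 (chr5:23334517-23334816, plus strand): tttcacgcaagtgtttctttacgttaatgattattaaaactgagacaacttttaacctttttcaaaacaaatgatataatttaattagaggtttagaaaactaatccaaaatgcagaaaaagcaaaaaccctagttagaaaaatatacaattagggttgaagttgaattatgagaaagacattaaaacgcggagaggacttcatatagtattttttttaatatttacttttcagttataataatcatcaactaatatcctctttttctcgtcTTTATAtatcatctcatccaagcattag
Of the 8 promoters 1, that of CASP5, held an AC element, ACCTAAC with its first base at position 31 of the transcribed part, and 7.29% of the 32488 promoters of genes in the table held at least 1. TATAAA was present in 6 of the 8 promoters (all but those of CASP1 and CASP4), against 50.1% of all promoters. These matches describe the letters in these windows only.

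All 8 genes differed among the 8 populations (moderated F test in limma, adjusted p between 1.33e-05 for MYB36 and 0.00555 for CASP4), as did 61.2% of all genes tested. By median FPKM the NSCs were highest for all 8 genes, and the CEI came next for 7 of them, the exception being CASP5, for which the QC came next. By mean FPKM the Protophlo, raised by its replicate 4, came above the NSCs for CASP1 (764 against 571 FPKM), CASP2 (440 against 231), CASP4 (156 against 89.6) and PER64 (432 against 249). The plot of FPKM by sample shows the spread within each population. Of the 56 steps between neighbours in the order of mean FPKM, 4 exceeded the larger SD of the 2 populations. MYB36 in the CEI against the NSCs was the one such step whose samples also did not overlap.

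**Figure D1:**
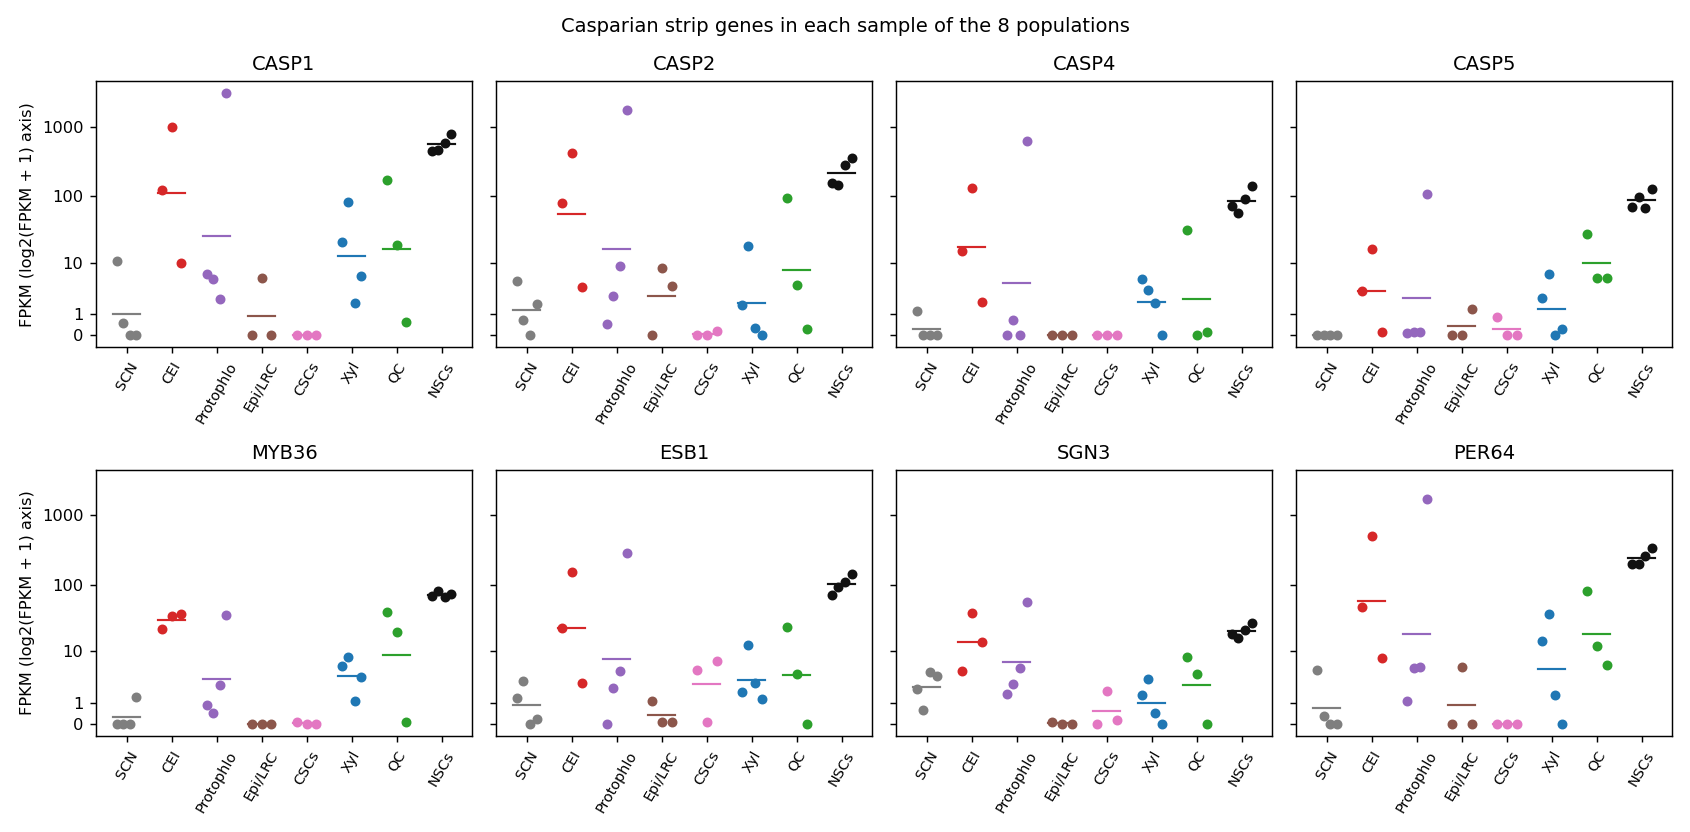
FPKM of the 8 genes in each of the 28 samples, on a log2(FPKM + 1) axis. Points are samples in order of replicate number and lines are means of log2(FPKM + 1). The 4 NSCs samples lie close together in every panel, and CEI replicate 2 and Protophlo replicate 4 reach them in the panels other than CASP5, which Protophlo replicate 4 alone reaches, and MYB36, which neither reaches.

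Compared with the NSCs, no Casparian strip gene was past the threshold in the higher direction in any population. All 56 fold changes of the limma fit were negative, so that none was higher at an unadjusted p under 0.05 either. The threshold was the one used for stem cell enrichment, an adjusted p under 0.06 and a fold change above 2. All 7 comparisons share the same 4 NSCs samples. Each SE rests on 1 estimate of spread per gene over all 8 populations, not on the spread of the population named. In the lower direction, 8 of 8 genes passed in the SCN (background of all genes tested 8.89%), 1 in the CEI (5.04%), 3 in the Protophlo (10.5%), 8 in the Epi/LRC (16.6%), 8 in the CSCs (18.3%), 8 in the Xyl (23.5%) and 5 in the QC (9.49%). The share of all genes that passed in the higher direction was 5.52% in the SCN, 5.37% in the CEI, 3.51% in the Protophlo, 12.5% in the Epi/LRC, 22.6% in the CSCs, 20% in the Xyl and 9.31% in the QC. The median log2 fold change of the 8 genes was -6.30 in the SCN, -2.05 in the CEI, -3.77 in the Protophlo, -6.21 in the Epi/LRC, -6.30 in the CSCs, -5.02 in the Xyl and -3.97 in the QC. The medians over all genes tested lay between -0.23 (Protophlo) and 0.12 (QC). With genes listed at 0 in every library set to 3 reads per library, as far as the worth of 1 read could be found, the median of the 8 genes was -6.09 in the SCN, -5.98 in the Epi/LRC and -6.16 in the CSCs.

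**Figure D2:**
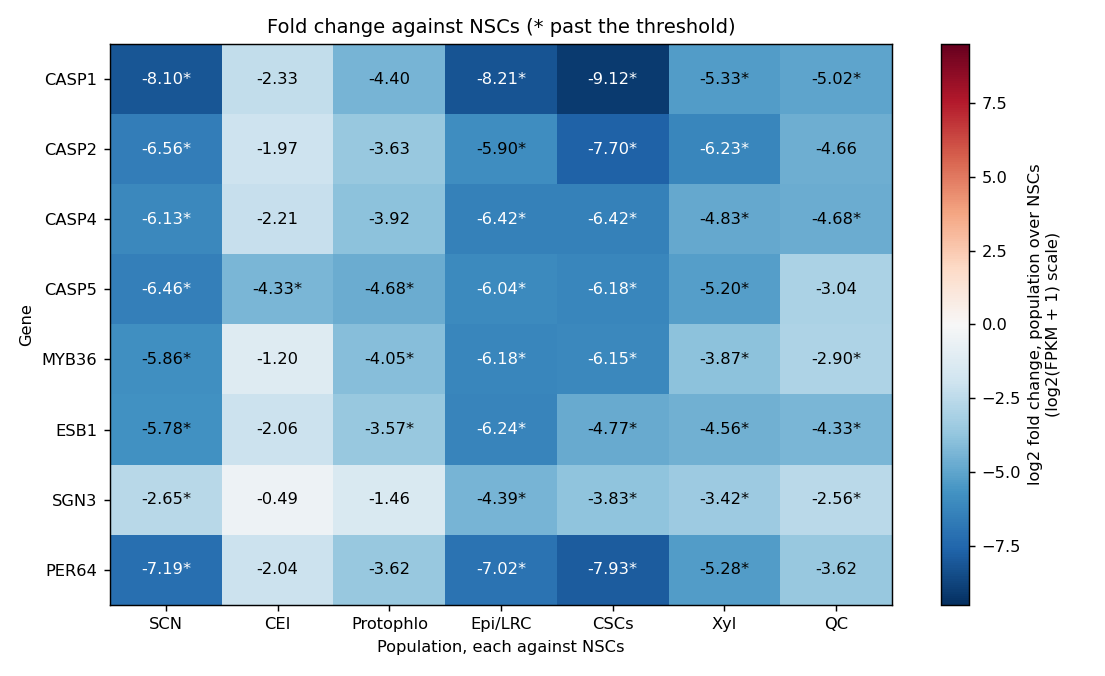
Log2 fold change of each gene in each population over the NSCs, on the log2(FPKM + 1) scale, from the fit of all 8 populations. Asterisks mark an adjusted p under 0.06 with a fold change above 2, and all 56 values are negative, from -9.12 (CASP1 in the CSCs) to -0.49 (SGN3 in the CEI).

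CASP1, the first of the membrane domain genes, was the most abundant of the 8 genes in the NSCs. It had 10.6, 0.481, 0 and 0 FPKM in the SCN, 0, 5.63 and 0 FPKM in the Epi/LRC and 0 FPKM in all 3 CSCs libraries, against 444, 468, 586 and 788 FPKM in the NSCs. It had 20.9, 81.1, 1.91 and 6.10 FPKM in the Xyl and 167, 18.7 and 0.531 FPKM in the QC. These populations did not overlap with the NSCs. In the CEI it had 123, 999.8 and 10.1 FPKM and in the Protophlo 6.55, 5.35, 2.36 and 3040.1 FPKM. CEI replicate 2 and Protophlo replicate 4 were thus above every NSCs sample, and the remaining samples of those populations were below every NSCs sample. The log2 fold change was -8.10 (SE 1.64, adjusted p = 0.00162) in the SCN and -9.12 (SE 1.77, adjusted p = 0.000289) in the CSCs. It was -2.33 (SE 1.77, adjusted p = 0.476) in the CEI and -4.40 (SE 1.64, adjusted p = 0.0761) in the Protophlo. In the CSCs 3 reads would have been 0.346 FPKM on average, which makes CASP1 at least 1652-fold lower there than its mean of 571 ± 157 FPKM (SD, n = 4) in the NSCs.

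CASP2 and CASP4, membrane domain genes that are expressed with CASP1, followed the same pattern. Outside CEI replicate 2 and Protophlo replicate 4, every stem cell sample was below every NSCs sample for both genes. CASP2 had at most 94.6 FPKM in the SCN, Epi/LRC, CSCs, Xyl and QC and CASP4 at most 32.0 FPKM, each in QC replicate 1. In the NSCs the ranges were 141.7 to 351 FPKM for CASP2 and 56.9 to 140.6 FPKM for CASP4. CASP4 was listed at 0 in all 3 Epi/LRC and all 3 CSCs libraries, where 3 reads would have been 0.507 and 0.556 FPKM, so it was at least 177-fold lower in the Epi/LRC and at least 161-fold lower in the CSCs than in the NSCs. Both genes passed the threshold in the SCN, Epi/LRC, CSCs and Xyl, with log2 fold changes from -4.83 (CASP4 in the Xyl) to -7.70 (CASP2 in the CSCs). Neither passed in the CEI or Protophlo, and in the QC CASP2 missed it (adjusted p = 0.0607).

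CASP5 departed from the other CASP genes in the CEI. It had 3.38, 16.3 and 0.105 FPKM in the CEI, against 69.3, 97.3, 67.6 and 126.7 FPKM in the NSCs. All 3 CEI samples were below all 4 NSCs samples, and CASP5 was the only one of the 8 genes past the threshold in the CEI (log2 fold change -4.33, SE 1.13, adjusted p = 0.0164). This call was lost without CEI replicate 1 (background 2.14%) and without CEI replicate 3 (1.11%), and with a pseudocount of 0.1. In the Protophlo it had 0.0900, 0.102, 0.101 and 105.1 FPKM (log2 fold change -4.68, SE 1.05, adjusted p = 0.00381). It was listed at 0 in all 4 SCN libraries, where 3 reads would have been 0.331 FPKM, at least 273-fold lower than in the NSCs. In the QC CASP5 had 27.8, 5.61 and 5.54 FPKM, all below the NSCs, and missed the threshold (log2 fold change -3.04, SE 1.13, adjusted p = 0.0633).

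The make-up of the CASP signal differed in the same way. CASP5 made up 1.54%, 1.04% and 0.650% of the summed FPKM of the 4 CASP genes in CEI replicates 1 to 3 and 1.90% in Protophlo replicate 4, against 6.64% to 12.7% in the 4 NSCs samples. Low shares were not confined to the CEI. The share was 0% in SCN replicate 1 and Epi/LRC replicate 2 and 0.888% in Protophlo replicate 3, at CASP sums of 16.8, 13.9 and 11.4 FPKM. In Xyl replicates 1 and 2 it was 8.13% and 6.07%, at sums of 30.4 and 109.6 FPKM. CASP5 over CASP1 was 0.0275, 0.0163 and 0.0104 in the CEI and 0.0346 in Protophlo replicate 4, against 0.115 to 0.208 in the NSCs. The CASP5 share did not overlap between the CEI and the NSCs, also not in CEI replicate 2, which was closest to the NSCs over all other genes. The QC samples had CASP5 shares of 8.64%, 19.7% and 86.2%, at CASP sums of 322, 28.5 and 6.43 FPKM, so that replicate 1 was within the range of the NSCs and replicates 2 and 3 were above it. CASP1 held 56.2% to 63.6% of the CASP sum in the CEI and 56.0% to 61.2% in the NSCs. These shares were not tested.

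**Figure D3:**
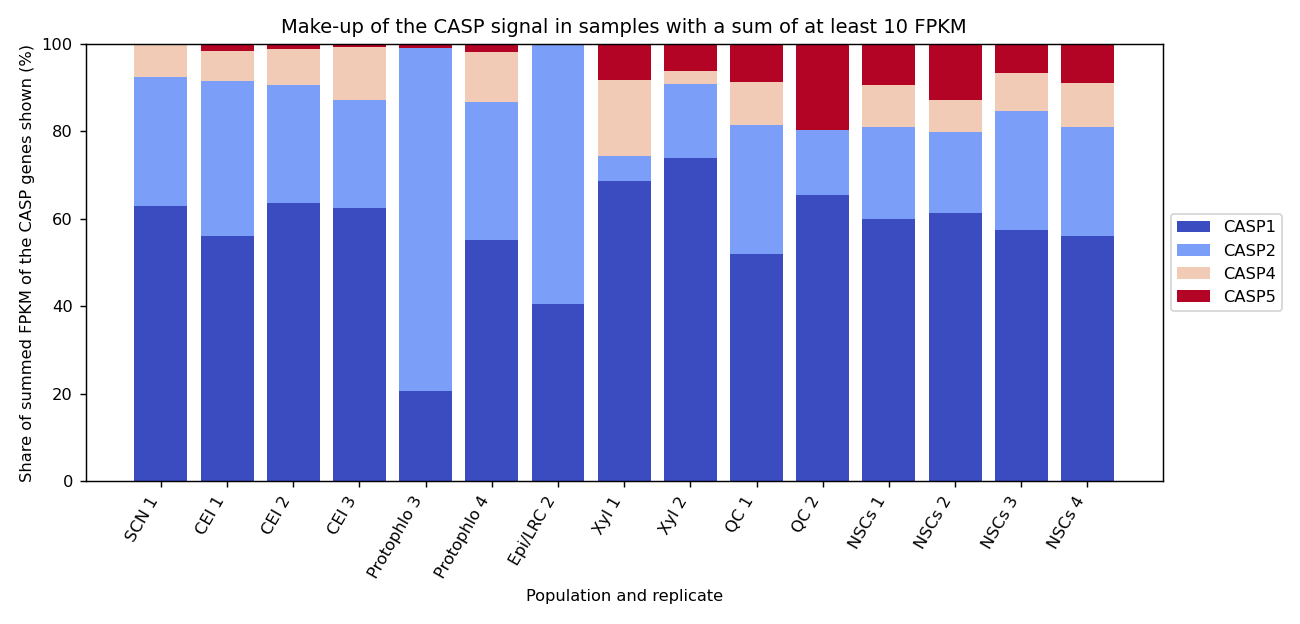
Share of each CASP gene in the summed FPKM of CASP1, CASP2, CASP4 and CASP5, for the 15 samples in which that sum was at least 10 FPKM. The CASP5 segment at the top is 0.650% to 1.54% in the CEI samples and 6.64% to 12.7% in the NSCs samples. It is also low in SCN replicate 1 (0%), Epi/LRC replicate 2 (0%) and Protophlo replicates 3 and 4 (0.888% and 1.90%).

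MYB36, the transcription factor upstream of the CASP genes, was the gene with the smallest spread within the CEI on the log2 scale. It had 22.3, 34.8 and 36.8 FPKM in the CEI, against 68.9, 80.0, 64.9 and 72.5 FPKM in the NSCs. The CEI samples were all below the NSCs samples, but the difference did not pass the threshold (log2 fold change -1.20, SE 0.94, adjusted p = 0.490). Of the alternatives, only the fit of the CEI and NSCs alone put MYB36 past the threshold in the CEI. MYB36 had 0.856, 0.425, 2.65 and 36.2 FPKM in the Protophlo, 5.76, 8.05, 1.12 and 3.67 FPKM in the Xyl and 40.3, 19.9 and 0.0464 FPKM in the QC. It passed the threshold in all of these, with log2 fold changes of -4.05 (adjusted p = 0.00259), -3.87 (adjusted p = 0.000800) and -2.90 (adjusted p = 0.0323). It was at 0, 0, 0 and 1.40 FPKM in the SCN, at 0.0535, 0 and 0 FPKM in the CSCs and listed at 0 in the 3 Epi/LRC libraries, at least 370-fold lower than in the NSCs in the last of these. No stem cell sample reached the lowest NSCs sample for MYB36, the only one of the 8 genes for which this held.

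MYB36 and the CASP genes did not keep a fixed ratio. Across the CEI replicates the summed CASP FPKM was 9.83, 45.1 and 0.439 times the MYB36 FPKM, against 9.55 to 19.4 times in the NSCs, and in Protophlo replicate 4 it was 152 times. CEI replicate 3 had the highest MYB36 level of the CEI samples with the lowest CASP sum, 16.2 FPKM, and it also had the highest level of SCR. CEI replicate 2 had the highest CASP sum, 1571 FPKM, and the lowest levels of SCR and MGP of the 3. In the QC, replicate 1 had 7.97 times and replicate 2 1.43 times as much summed CASP FPKM as MYB36. Replicate 3 had 139 times, but its MYB36 level of 0.0464 FPKM was worth about 1 read, so that ratio is not reliable.

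**Figure D4:**
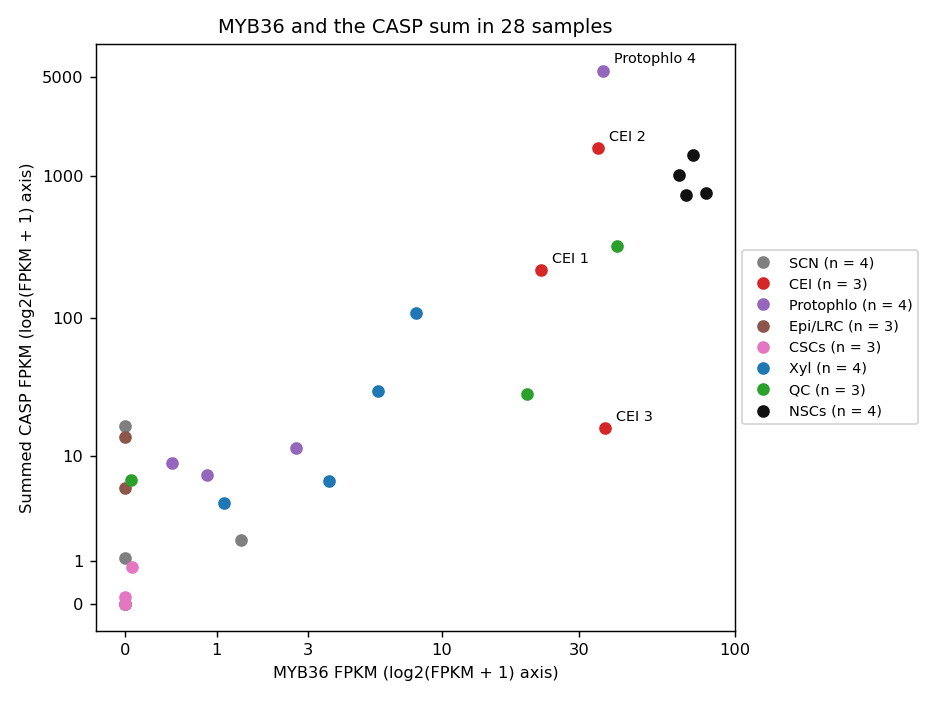
Summed FPKM of CASP1, CASP2, CASP4 and CASP5 against the FPKM of MYB36 in the 28 samples, both on log2(FPKM + 1) axes, with points coloured by population. The 3 CEI samples have similar MYB36 levels (22.3 to 36.8 FPKM) and CASP sums from 16.2 to 1571 FPKM.

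PER64, a peroxidase that acts at the strip, and ESB1, the dirigent-like protein, took the same course as CASP1, CASP2 and CASP4. PER64 had 46.2, 502.6 and 7.74 FPKM in the CEI and 1.11, 5.41, 5.63 and 1716.6 FPKM in the Protophlo, against 199.3, 196.6, 257.9 and 342.2 FPKM in the NSCs. ESB1 had 23.2, 154.7 and 2.83 FPKM in the CEI and 0, 2.23, 4.79 and 287.4 FPKM in the Protophlo, against 71.7, 92.9, 108.4 and 141.3 FPKM in the NSCs. In both genes CEI replicate 2 and Protophlo replicate 4 exceeded every NSCs sample, and no other stem cell sample reached the lowest one. PER64 was listed at 0 in all 3 CSCs libraries, while ESB1 kept 5.02, 0.0568 and 7.06 FPKM there. The log2 fold changes in the CSCs were -7.93 for PER64 (SE 1.60, adjusted p = 0.000409) and -4.77 for ESB1 (SE 1.35, adjusted p = 0.00663). ESB1 was past the threshold in the Protophlo by a narrow margin (log2 fold change -3.57, SE 1.25, adjusted p = 0.0585), and 21 of the 28 fits without 1 sample lost that call. PER64 missed it in the Protophlo (adjusted p = 0.107) and in the QC (adjusted p = 0.118).

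SGN3, the receptor kinase, was the least abundant in the NSCs and had the smallest differences. It had 4.84, 38.9 and 14.3 FPKM in the CEI and 1.69, 2.75, 5.42 and 56.4 FPKM in the Protophlo, against 18.9, 16.4, 21.3 and 26.8 FPKM in the NSCs. The CEI samples lay on both sides of the NSCs range, and neither the CEI (log2 fold change -0.49, SE 0.86, adjusted p = 0.806) nor the Protophlo (log2 fold change -1.46, SE 0.79, adjusted p = 0.241) passed the threshold. The fold change in the CEI turned to 0.20 without CEI replicate 1. In the SCN it had 2.21, 0.598, 4.54 and 3.89 FPKM, all below the NSCs (log2 fold change -2.65, SE 0.79, adjusted p = 0.0273), and this call was lost without SCN replicate 2, without NSCs replicate 4 and with a pseudocount of 0.1.

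Without CEI replicate 2 and Protophlo replicate 4, 5 of the 8 genes were past the threshold in the CEI, 8 in the Protophlo and 8 in the QC, all lower than in the NSCs, and the counts in the other populations stayed at 8. In that fit 9.41% of all genes tested were past the threshold as lower in the CEI, 10.9% in the Protophlo, 10.8% in the QC, 10.1% in the SCN, 17.4% in the Epi/LRC, 19% in the CSCs and 24.3% in the Xyl. As higher, 7.15% passed in the SCN, 10.9% in the CEI, 4.15% in the Protophlo, 13.6% in the Epi/LRC, 23.6% in the CSCs, 20.5% in the Xyl and 11.2% in the QC. The 5 genes in the CEI were CASP1 (log2 fold change -3.91, adjusted p = 0.0507), CASP4 (-3.63, adjusted p = 0.0112), CASP5 (-5.33, adjusted p = 4.71e-05), ESB1 (-3.40, adjusted p = 0.0258) and PER64 (-3.58, adjusted p = 0.0331). MYB36 and SGN3 stayed short of it in the CEI (adjusted p = 0.360 and 0.307). Leaving out Protophlo replicate 4 alone gave 8 of 8 genes in the Protophlo (background 10.5%) and in the QC (10.2%). The QC and NSCs samples were the same in that fit, and the spread per gene was estimated over all populations together. The QC count was the least stable, at 1 without QC replicate 2 (background 6.86%), 0 without QC replicate 3 (5.98%), 3 without NSCs replicate 1 (7.93%) or 2 (7.71%), 2 without NSCs replicate 3 (7.75%) and 0 without NSCs replicate 4 (6.91%).

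The CEI divide to give the cortex and the endodermis, so they were also compared with the average of the other 5 stem cell types (Protophlo, Epi/LRC, CSCs, Xyl and QC). MYB36 was higher in the CEI (log2 difference 3.44, SE 0.77, adjusted p = 0.00990), as was SGN3 (2.64, SE 0.71, adjusted p = 0.0376), so 2 of 8 genes passed the threshold, against 2.44% of all genes tested in this direction and 0.538% in the lower one. The log2 differences of CASP1, CASP2, CASP4, ESB1 and PER64 were between 2.63 and 4.09 and did not pass it (adjusted p between 0.163 and 0.284). CASP5 had the smallest difference, 0.69 (SE 0.93, adjusted p = 0.892). The comparison is with an average, and QC replicate 1 for MYB36 (40.3 FPKM) and Protophlo replicate 4 for SGN3 (56.4 FPKM) were above every CEI sample. Without Protophlo replicate 4 the count was 7 of 8 (background 2.71%). It was 0 without CEI replicate 2 (1.55%), 0 without CEI replicate 3 (1.7%) and 1 without both CEI replicate 2 and Protophlo replicate 4 (1.68%).

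The 8 genes varied together. On log2(FPKM + 1) over the 28 samples, Pearson's r between pairs of CASP1, CASP2, CASP4, ESB1 and PER64 lay between 0.899 and 0.972. It was 0.870 to 0.904 between CASP5 and these 5 genes, 0.838 to 0.897 between MYB36 and them and 0.808 to 0.858 between SGN3 and them. Within populations, after each population's mean was taken away, r between pairs of the 8 genes lay between 0.647 and 0.942. Over the 26 samples without CEI replicate 2 and Protophlo replicate 4, r was 0.857 to 0.962 among the 5 genes, 0.856 to 0.904 with CASP5, 0.838 to 0.906 with MYB36 and 0.729 to 0.797 with SGN3. These coefficients are descriptions, since the samples of a pair share libraries and populations.

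The genes with profiles most like the average of the 8 genes, by Pearson's r over the 28 samples, were the peroxidase gene PRX72 (AT5G66390, r = 0.973), AT1G30750 (0.967), the laccase gene LAC3 (0.965), the dirigent-like gene AT3G55230 (0.964), the protein kinase gene AT1G61590 (0.962), the uclacyanin gene UCC1 (0.959), the lipid transfer protein gene AT2G48130 (0.955) and the acyltransferase gene RWP1 (AT5G41040, 0.954). Most like MYB36 were the lipid transfer protein genes AT2G48130 (0.964) and AT3G22600 (0.960) and the peroxidase gene AT3G32980 (0.954). Most like SGN3 were MYB74 (0.916), AT1G30750 (0.907) and the dirigent-like gene AT2G39430 (0.898). Without CEI replicate 2 and Protophlo replicate 4 these coefficients were 0.942 to 0.964 with the average, 0.952 to 0.966 with MYB36 and 0.854 to 0.914 with SGN3. PRX72 had 115.9, 861 and 3.43 FPKM in the CEI and 0.280, 1.78, 0 and 1865 FPKM in the Protophlo, against 401 to 748 FPKM in the NSCs. It thus had the same high samples as CASP1, but it was picked by its r over these same samples, so this is no separate result.

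Other genes of the strip and of the endodermis were counted in the same way, and their counts read against the background shares given above (5.04% to 23.5% lower, 3.51% to 22.6% higher). Among 11 other genes for lignification and wall proteins of the strip, 10 were lower than in the NSCs in the SCN, 0 in the CEI, 4 in the Protophlo, 10 in the Epi/LRC, 11 in the CSCs, 10 in the Xyl and 5 in the QC, and 0 were higher in any population. With CEI replicate 2 and Protophlo replicate 4 left out, 7 were lower in the CEI, 10 in the Protophlo and 10 in the QC. Their median log2 fold change was -5.53 in the SCN and -6.31 in the CSCs. PRX72, LAC3, AT3G55230 and UCC1, named above for their high r, are among these 11 genes. PRX72 had a log2 fold change of -8.78 in the SCN (SE 1.76, adjusted p = 0.00142) and of -8.99 in the CSCs (SE 1.90, adjusted p = 0.000625). The peroxidase gene AT4G11290 fell by 7.97 on the log2 scale in the SCN (SE 1.17, adjusted p = 4.04e-05) and by 6.11 in the Protophlo (SE 1.17, adjusted p = 0.000977). AT4G11290 did not share the high value of Protophlo replicate 4, with 4.54, 0.386, 99.3 and 0.0684 FPKM in the Protophlo, against 262.5 to 469 FPKM in the NSCs.

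Monolignol synthesis supplies the precursors of lignin. Of its 15 tested genes, 6 were lower than in the NSCs in the SCN, 0 in the CEI, 1 in the Protophlo, 13 in the Epi/LRC, 11 in the CSCs, 11 in the Xyl and 9 in the QC. In the fit without CEI replicate 2 and Protophlo replicate 4, 9 were lower in the SCN, 1 in the CEI, 5 in the Protophlo and 10 in the QC. The 1 of 15 in the Protophlo (10.5% of all genes) and, in the second fit, in the CEI (9.41%) did not exceed the background. CAD5, which makes the lignin alcohols in the last step, had a log2 fold change of -3.80 in the SCN (SE 0.72, adjusted p = 0.000883) and of -5.52 in the Epi/LRC (SE 0.78, adjusted p = 1.93e-05). FAH1, a hydroxylase of syringyl lignin, was the 1 gene that was higher, in the Epi/LRC, with 14.0, 21.7 and 53.9 FPKM there, against 0.247 to 0.938 FPKM in the NSCs (log2 fold change 4.10, SE 0.74, adjusted p = 0.000300). Against the other 5 stem cell types, 7 of the 15 genes were higher in the CEI (background 2.44%), and 2 without CEI replicate 2 and Protophlo replicate 4 (1.68%). Among the 7 were 4CL1 (log2 difference 3.29, SE 0.80, adjusted p = 0.0205) and CAD5 (2.83, SE 0.64, adjusted p = 0.0112).

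Suberin, the later coat of the endodermis, was represented by 10 tested genes of 19, of which 1 was lower than in the NSCs in the SCN, 0 in the CEI, 1 in the Protophlo, 4 in the Epi/LRC, 4 in the CSCs, 5 in the Xyl and 2 in the QC. The counts in the SCN (1 of 10, against 8.89% of all genes) and Protophlo (1 of 10, against 10.5%) were near the background. In the fit without those 2 libraries (CEI replicate 2 and Protophlo replicate 4) 9 suberin genes were tested, and 2 were lower in the SCN, 1 in the CEI, 4 in the Protophlo, 5 in the Epi/LRC, 5 in the CSCs, 5 in the Xyl and 3 in the QC. KCS20, a fatty acid elongase, fell by 5.57 on the log2 scale in the CSCs (SE 0.70, adjusted p = 1.68e-06). ABCG20, a transporter, was higher in the CSCs (log2 fold change 2.33, SE 0.55, adjusted p = 0.00164). Of the genes around SGN3 signalling 3 were tested, and calls were made in both directions. RBOHF, the NADPH oxidase that makes the hydrogen peroxide used at the strip, was lower than in the NSCs in every population but the CEI, with log2 fold changes from -1.74 (Protophlo, adjusted p = 0.0263) to -5.85 (CSCs, adjusted p = 2.67e-08). RBOHD, another NADPH oxidase, was lower in the Epi/LRC (log2 fold change -2.80, SE 0.95, adjusted p = 0.0296). TPST, which sulfates the peptides that SGN3 senses, was higher in the CSCs (log2 fold change 2.16, SE 0.47, adjusted p = 0.000835) and in the QC (2.11, SE 0.47, adjusted p = 0.00330). No other call was made for these 3 genes against the NSCs, and 1 of the 3 was lower in the CEI once CEI replicate 2 and Protophlo replicate 4 were left out.

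Among the 10 tested endodermal transcription factors the directions differed. SCR and MGP were higher in the CEI than in the NSCs (log2 fold change 2.46, SE 0.80, adjusted p = 0.0522 for SCR, and 3.56, SE 0.79, adjusted p = 0.00592 for MGP), and 0 of the 10 were lower there. MGP was also higher in the SCN (2.49, SE 0.73, adjusted p = 0.0237) and SCR in the QC (2.22, SE 0.80, adjusted p = 0.0566). SHR, which moves from the stele into the endodermis, was higher in the Xyl (log2 fold change 5.56, SE 0.66, adjusted p = 5.90e-07) and in the CSCs (2.94, SE 0.71, adjusted p = 0.00200). MYB74 was lower in the SCN, Protophlo, Epi/LRC, CSCs, Xyl and QC, with log2 fold changes from -2.64 (Protophlo, adjusted p = 0.0245) to -5.57 (Epi/LRC, adjusted p = 4.63e-05). In the populations other than the CEI, 2 of the 10 genes were lower and 1 higher in the SCN, 3 and 0 in the Protophlo, 3 and 0 in the Epi/LRC, 2 and 1 in the CSCs, 5 and 1 in the Xyl and 2 and 1 in the QC. The 1 higher gene of 10 in the SCN, CSCs, Xyl and QC stands against 5.52%, 22.6%, 20% and 9.31% of all genes. The lower counts stand against 8.89% in the SCN, 10.5% in the Protophlo, 16.6% in the Epi/LRC, 18.3% in the CSCs, 23.5% in the Xyl and 9.49% in the QC. In the CSCs, 2 of 10 was thus near the background. Leaving out CEI replicate 2 and Protophlo replicate 4 gave 3 higher in the CEI and 6 lower in the Xyl, with the other counts as before.

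The CASP-like family, whose members share the membrane domain fold with the CASP proteins, had 34 genes in the table, and 26 of them were tested. Genes of the family passed in both directions, with 3 lower and 1 higher in the SCN, 1 and 1 in the CEI, 3 and 0 in the Protophlo, 9 and 1 in the Epi/LRC, 10 and 6 in the CSCs, 11 and 1 in the Xyl and 7 and 3 in the QC. The counts in the SCN, CEI and Protophlo were near the background (8.89%, 5.04% and 10.5% lower, 5.52%, 5.37% and 3.51% higher). So were the higher counts in the CSCs (6 of 26, against 22.6%) and QC (3 of 26, against 9.31%). The higher counts in the Epi/LRC and Xyl lay below it (12.5% and 20%). The lower counts in the Epi/LRC, CSCs, Xyl and QC stand against 16.6%, 18.3%, 23.5% and 9.49%. The family counts were 1 and 2 in the CEI, 3 and 2 in the Protophlo and 6 and 3 in the QC in the fit without CEI replicate 2 and Protophlo replicate 4. CASPL3A1 was higher in the CEI (log2 fold change 3.83, SE 0.65, adjusted p = 0.000489). It was also higher in the CSCs (4.07, adjusted p = 3.83e-05), SCN (2.83, adjusted p = 0.00252) and QC (2.02, adjusted p = 0.0319). In CEI replicates 1 to 3 it had 44.1, 10.7 and 37.9 FPKM, against 0 to 1.48 FPKM in the NSCs. In CEI replicate 2, where CASP1 was highest, CASPL3A1 was thus lowest. CASPL1D1 was lower in the CSCs (log2 fold change -5.27, SE 0.98, adjusted p = 0.000189), with 5.36, 4.66 and 13.6 FPKM there, against 157 to 566 FPKM in the NSCs. It was also past the threshold as lower in the Epi/LRC (-4.12), Xyl (-4.06) and QC (-3.64).

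**Figure D5:**
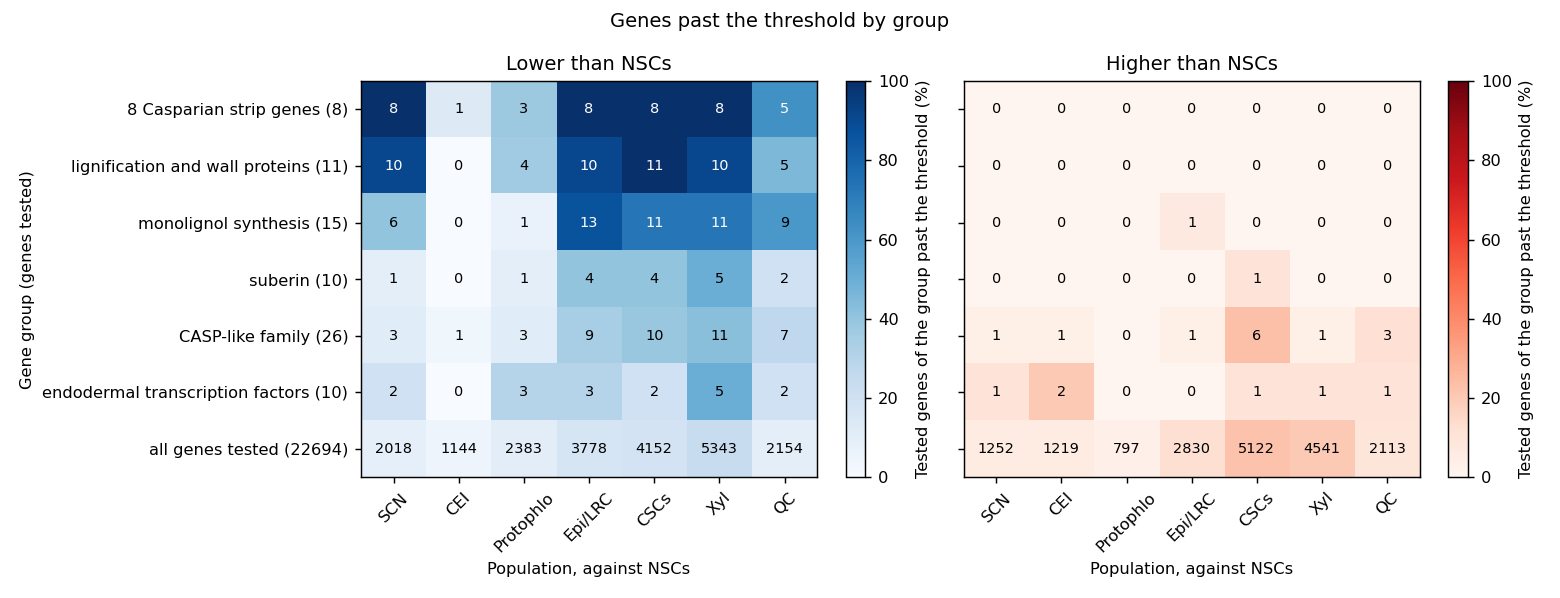
Number of tested genes of each group that were lower (left) and higher (right) than in the NSCs, with the share of the group as colour and the number tested in parentheses. The 8 Casparian strip genes and the lignification and wall proteins have no gene in the higher direction in any population, while the CASP-like family has genes in both. Its shares in the higher direction are near or below those of all genes tested, shown in the last row.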

How the data were processed

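Cells of 7 reporter lines and the non-stem cells were sorted, and cDNA was amplified with SMART-Seq and sequenced as 100 base single-end reads. The authors mapped the reads and deposited FPKM values for 33201 genes in 28 samples, made per their methods with Bowtie, Tuxedo and Rsubread. The submitters' processing notes list TopHat2 2.0.13, Cufflinks 2.1.1 and the build TAIR10, and name no scaling between samples beyond FPKM. The files give no coordinates, so positions and promoters come from TAIR10.1 (RefSeq), which holds a locus for 32489 of the 33201 identifiers. Columns were assigned by marker initial and replicate number, those of the CEI by elimination, and none was left over.

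Tests were run on log2(FPKM + 1), a scale that understates the change of low genes. Genes with at least 1 FPKM in at least 3 samples (22694) were fitted in limma 3.58.1 under R 4.3.3, with a mean per population, no block and empirical Bayes with a trend, and p-values were adjusted by Benjamini-Hochberg over all of them. PoissonSeq, which the study used, takes counts and was not used. The steps were tested on simulated data.

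Absolute depth is unknown. Comparing low values of genes with 1 transcript, whole-read steps gave a relative depth that spanned 4.10-fold, from Xyl replicate 1 to NSCs replicate 1, with a median misfit of 0.0034 (log2) over 378 pairs. A step within 0.15 reads was found for 45.5% of 12363 genes and for the CASP genes, MYB36 and ESB1, too few for a count test. Floors of 3 reads cover counting error only. The labels call the replicates biological, and give no batch or date.

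The Casparian strip genes, lists, alternatives and the rule for named genes (from each list, the 2 largest changes past the threshold per comparison and direction, and the 8 or 3 genes of highest r) were chosen with earlier results of these data known. Of the 9 genes chosen, 1 is not reported here, and it stayed in the fits over all genes. Of the list genes, those that the reference does not name as listed (5 of 9 for receptor signalling) were left out. FAH1, RBOHF, the high and low samples and the removal of CEI replicate 2 and Protophlo replicate 4 were singled out after their values were seen. Alternatives were a pseudocount of 0.1, no filter, median-of-ratios size factors, TPM, only the populations compared, the replicate number as a block, no trend, an adjusted p under 0.05 and each sample left out. Tables and figures used Python 3.11.15, numpy 2.4.6, pandas 2.3.3 and matplotlib 3.10.9.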

Additional observations from a re-analysis of the deposited data

Results flagged for a closer look

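In the populations with 4 samples, 31 sets of FPKM values of 1 gene were examined for a sample set apart from the others. The measure was its gap to the nearest other sample, as a share of the range. In 14 sets the gap was above Dixon's critical value for 4 samples. That value is made for normally distributed values, and these FPKM are skewed, so the rate by chance is unknown and no excess was tested. Where all samples but 1 had the same value, as for CASP4 and MYB36 in the SCN, the gap is the whole range whatever its size. For all 8 genes Protophlo replicate 4 was the sample set apart in its population, always as the highest. The gap was 0.999 of the range for CASP1, 0.995 for CASP2, 0.999 for CASP4, 1.00 for CASP5, 0.938 for MYB36, 0.983 for ESB1, 0.932 for SGN3 and 0.997 for PER64. The 8 genes vary together, so these are not independent.

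SCN replicate 1 was the highest of its population for CASP1 (gap of 0.955 of the range), CASP4 (1.0) and PER64 (0.937), with 10.6, 1.25 and 4.88 FPKM. SCN replicate 4 was the highest for MYB36 (1.0), with 1.40 FPKM. Xyl replicate 2 was the highest for CASP2 (0.906) and ESB1 (0.856), with 18.4 and 12.6 FPKM. All of these stayed below every NSCs sample.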

How the results depend on the processing

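The counts of Casparian strip genes past the threshold in the SCN, Epi/LRC, CSCs and Xyl stayed at 7 or 8 of 8 under every alternative and with each sample left out, and all 8 genes still differed among populations. With a pseudocount of 0.1 the count was 0 in the CEI (against 1), 1 in the QC (against 5) and 1 for the CEI against the other 5 stem cell types (against 2). Over all 22694 genes tested, 606 were then lower in the CEI (against 1144) and 1704 in the QC (against 2154). As higher in the CEI against the other types there were 477 (against 553). With only the populations compared the count was 2 in the CEI (CASP5 and MYB36), 8 in the QC and 1 for the CEI against the other types. Of all genes in those fits, 1803 of 18788, 3235 of 18693 and 427 of 21634 passed in the same direction. With no filter the count was 3 in the QC, where 1937 of 31526 genes were lower. Without CEI replicate 2 and Protophlo replicate 4, chosen after seeing the data, it was 5 in the CEI, 8 in the Protophlo, 8 in the QC and 1 for the CEI against the other types. Leaving out 1 sample gave 0 to 1 in the CEI (0 without CEI replicate 1 or 3), 2 to 8 in the Protophlo, 0 to 8 in the QC, 0 to 7 for the CEI against the other types and 7 to 8 in the SCN and Epi/LRC. The 1 fold change that reversed was that of SGN3 in the CEI, which lay between -1.19 (without CEI replicate 2) and 0.20 (without CEI replicate 1). The cause of these changes was not tested.

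Over all populations, samples of the same replicate number were not more alike than others, and the 4 pairs of SCN and NSCs were too few to decide on pairing. Residuals of same-numbered samples of different populations had a mean r of -0.02 over 90 pairs, 11 of them over 0.1. For the SCN and NSCs, sorted from the same line, the mean r was 0.07 over 4 same-numbered pairs (2 over 0.1) and -0.02 over 12 others (1 over 0.1), and 4 of 28 samples correlated best with a sample of their own number. With the number as a block the count was 2 in the QC, where 1990 of 22694 genes were lower, and the other counts did not change. In the Protophlo, though, CASP1 was gained (adjusted p = 0.0558) and ESB1 lost (adjusted p = 0.0647). Size factors moved the median of all genes by -0.30 in the CSCs, -0.22 in the QC, -0.14 in the Epi/LRC, -0.11 in the SCN and Xyl and 0.10 in the Protophlo. They moved the share of calls in the higher direction to 38.1% in the CSCs (against 55.2%), 29.7% in the QC (against 49.5%) and 35.8% in the Protophlo (against 25.1%), while the 56 fold changes of the 8 genes kept their sign. With 3 or 4 samples per population and zeros worth up to a few reads, small differences among low populations were not detectable.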
